A study of Mus musculus with 16 samples.

Results

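Splicing removes introns from pre-mRNA in the spliceosome, which is built from small nuclear ribonucleoprotein particles (snRNPs) and many further proteins. SR proteins bind exonic sequences and recruit the particles, whereas heterogeneous nuclear ribonucleoproteins (hnRNPs) coat nascent transcripts and often repress the use of a site. The genes described here are the 63 whose array name begins with Srsf, Sfrs, Snrp, Sf3a, Sf3b, Hnrnp or Prpf, of 25862 genes tested. Classed by these prefixes, they comprise 12 SR protein genes, 18 hnRNP genes, 12 snRNP protein genes, 8 genes of the SF3A and SF3B complexes and 13 Prpf genes. Each gene was represented by the brightest of its probes, and 110 probes carried these names.

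RNA came from whole uteri of mice ovariectomized at 4 weeks of age, an operation that removes the main source of estrogen, and left 2 to 3 weeks before treatment. The groups were Arg260 mice given 17β-estradiol (E2), Arg260 mice given PLB, WT mice given E2 and WT mice given PLB, with 4 arrays each. E2 was a subcutaneous dose of 8 µg/kg in castor oil, PLB the same injection with 0 µg/kg, and tissue was taken after 6 h. The labels name the mutant estrogen receptor alpha (ERα) mice by an arginine position and do not state the substitution. They do not say that each array is a separate animal, so p-values measure the spread between these samples. In a whole uterus, fewer cells of a type and less RNA per cell cannot be told apart.

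Between 36505 and 41890 of 59305 non-control spots per array were well above background, and no spot was saturated. The probe used for each of the 63 genes was well above background on all 16 arrays. The second principal component of all genes (5.12% of the variance) set apart Arg260 PLB replicate 3, at -59.7, and WT PLB replicate 2, at 68.8, against -18.2 to 14.3 for the other 14 arrays. Over the 63 genes, arrays of a group correlated at 0.991 to 0.998, and the first component held 95.9% of the variance.

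After E2, most of these genes rose in both genotypes. In Arg260 uteri 55 of 63 rose, 2 fell and 6 did not pass an adjusted p of 0.05 in the limma fit, where 33.6% of all genes tested rose and 30.7% fell (64.3% either way). In WT uteri 55 rose, 3 fell and 5 did not pass, against 31.9% of all genes higher and 31.7% lower (63.5% either way). The 55 that rose were the same genes in both genotypes. The median log2 change was 0.93 in Arg260 and 0.95 in WT, against 0.02 and -0.02 over all genes tested. At least a doubling was reached by 30 genes in Arg260 (14% of all genes) and 29 in WT (13.4% of all genes). All E2 arrays lay above all PLB arrays for 55 genes in Arg260 (31.2% of all genes) and 54 in WT (30.1% of all genes).

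The size of these changes depended on how arrays were scaled. With quantile normalization, which forces one distribution on all arrays, the median log2 change was 0.58 in Arg260 and 0.61 in WT, with 49 genes higher and 5 lower in each genotype. Without the 2 arrays that stood apart, a setting chosen after seeing the data, 54 genes rose and 2 fell in Arg260, and 55 rose and 2 fell in WT. Arrays came from 2 slides, each holding replicates of all groups. Within slide 1, 53 genes rose in Arg260 and 54 in WT, and within slide 2, 52 rose in Arg260 and 51 in WT.

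Markers of other tissue components were also counted, where 64.3% of all genes in Arg260 and 63.5% in WT were called either way. Only the adipocyte list in WT exceeded that share. Of 8 adipocyte markers 2 fell in Arg260 and 8 fell in WT, and their mean log2 level per array ran from -2.79 to 0.06 in Arg260 E2, -0.44 to 1.06 in Arg260 PLB, -4.74 to -0.99 in WT E2 and -0.08 to 1.80 in WT PLB. The WT E2 arrays lowest and highest in these markers, replicates 1 and 2, had median member changes of 0.97 and 0.95 against the WT PLB mean. Both are E2 arrays, so these values do not cover the difference in these markers between E2 and PLB. Of 8 stroma markers, Pdgfra, Dcn, Lum and Vim fell in each genotype and 4 were not called. Of 8 epithelium markers 4 rose and 1 fell in Arg260, and 2 rose and 1 fell in WT. Krt7 rose most, 5.34-fold in Arg260 and 4.75-fold in WT. Krt18 fell in each, 1.28-fold and 1.38-fold, and the rest were not called. Of 8 smooth muscle markers 2 rose and 1 fell in Arg260, and 4 rose and 1 fell in WT. Lmod1 was among those that rose in both (1.83-fold and 2.37-fold), and Smtn fell in both (2.08-fold and 1.79-fold). Of 8 endothelium markers 2 rose and 1 fell in Arg260, and 1 rose and 4 fell in WT. Among 8 leukocyte markers 1 rose and 4 fell in Arg260, and 1 rose and 3 fell in WT. Their mean log2 level was 3.54 on Arg260 PLB replicate 3, against 1.67 to 1.90 on the other Arg260 PLB arrays. The part of these shifts in the changes of the 63 genes was not tested.

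**Figure D1:**
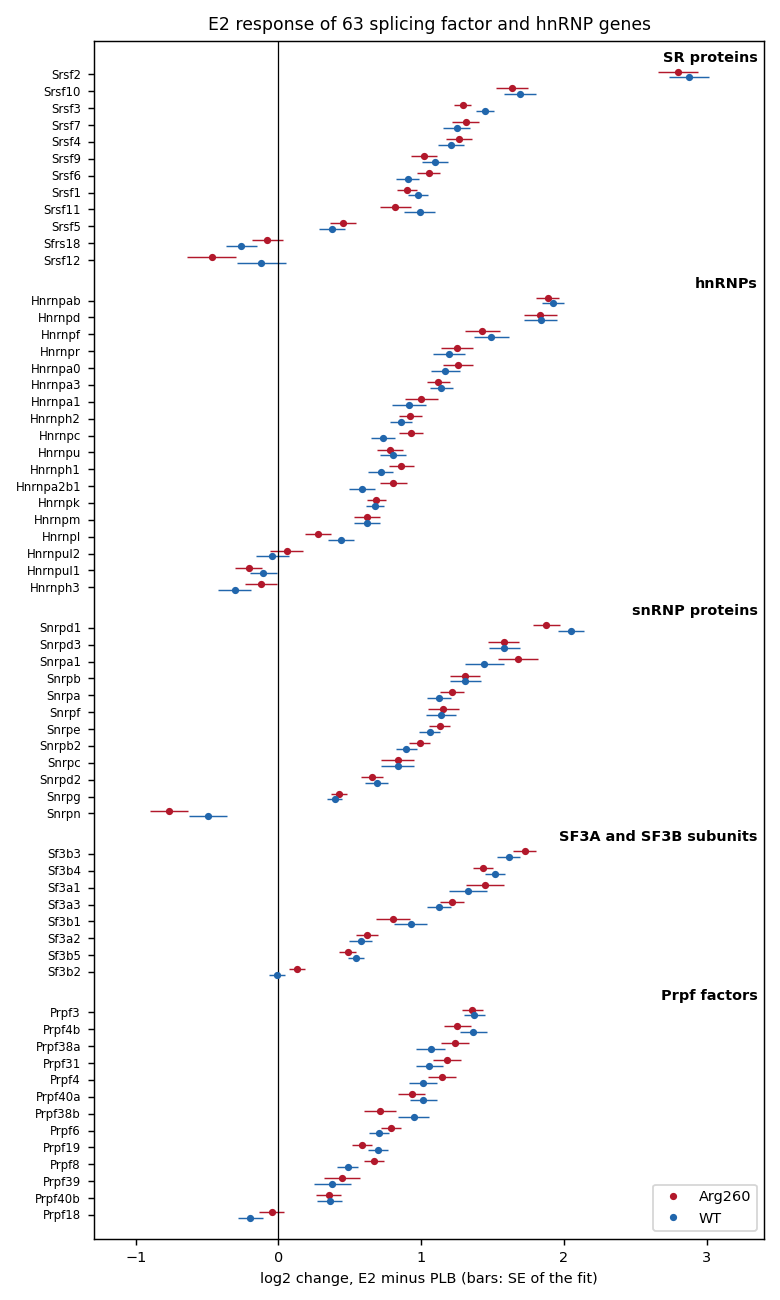
Log2 change after E2 (E2 minus PLB, x axis) of each of the 63 genes (y axis), grouped by class, in Arg260 (red) and WT (blue); bars are the standard error of the limma fit. Most points lie right of 0 in both genotypes, with Srsf2 farthest at 2.80 in Arg260 and 2.88 in WT, and Snrpn lowest at -0.77 in Arg260 and -0.50 in WT.

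Of the 12 SR protein genes, 10 rose in both genotypes, with a class median log2 change of 1.04 in each. Srsf2 changed most of the 63 genes. It encodes an SR protein that binds exonic enhancers and is known to limit its own mRNA through alternative splicing of its 3′ region. Its brightest probe read 3.58, 3.65, 3.82 and 3.56 in Arg260 E2 uteri, against 0.68, 0.95, 0.63 and 1.16 in Arg260 PLB uteri, as log2 signal relative to the array's 75th percentile. WT uteri gave 3.65, 3.62, 3.51 and 3.27 with E2, against 0.68, 0.85, 0.71 and 0.31 with PLB. The groups were far apart in both genotypes. The log2 change was 2.80 ± 0.14 (SE) in Arg260, 6.96-fold, and 2.88 ± 0.14 in WT, 7.34-fold (adjusted p 4.61e-10 and 3.82e-10). Changes given for the other genes are log2 differences, E2 minus PLB, with the standard error of the fit after ±, unless a fold is named.

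The array holds 3 probes for Srsf2, and they did not move together, so their opening 30 bases of 60 are shown here in lower case, with nothing marked. All lie on the minus strand of chromosome 11 in mm9, the build named in the file headers, at chr11:116711994-116712053, chr11:116713385-116713444 and chr11:116712806-116712865. The first 2 carry the RefSeq transcript of the gene, and the last carries an Ensembl transcript.
A_52_P8043: gagcgacttcagatttcattattggattgg
A_55_P2030486: atcgagaagccctccgcccgtgtcgaagcg
A_55_P2030491: gtggcaaaggaattgcaattaagaagcaat

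The second probe of Srsf2 rose like the first, by 2.44 ± 0.09 in Arg260 and 2.52 ± 0.09 in WT on the log2 scale. The third fell. It read -4.04, -3.95, -4.37 and -3.76 in Arg260 E2, against -3.07, -2.72, -3.26 and -3.39 in Arg260 PLB. With E2, WT uteri read -3.67, -4.53, -3.77 and -3.87, against -2.86, -3.22, -2.92 and -3.05 with PLB. E2 and PLB arrays did not overlap in either genotype, and the log2 change was -0.92 in Arg260 and -0.95 in WT (adjusted p over all 38683 probes 6.93e-04 and 5.77e-04). Srsf2 was the only one of the 33 genes with more than 1 measured probe whose probes were called in opposite directions, under the settings of the main fit.

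**Figure D2:**
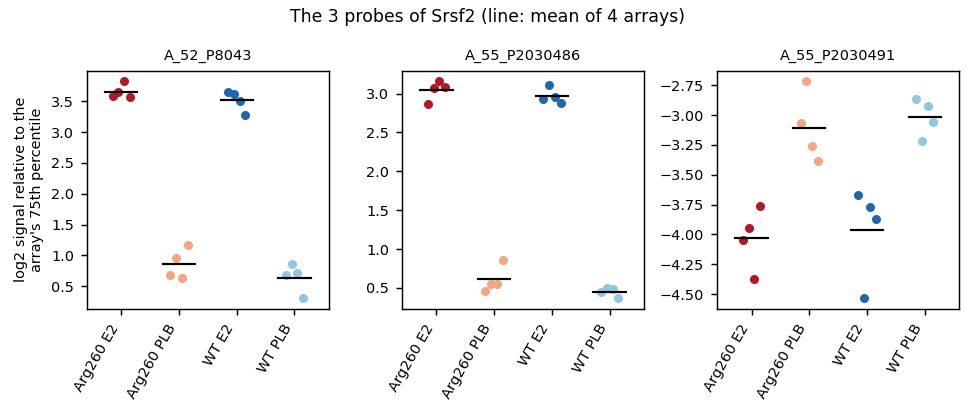
Log2 signal relative to the array's 75th percentile (y axis) on each array for the 3 probes of Srsf2, by group (x axis), with the mean of 4 arrays as a line. The first 2 probes are higher and the third is lower with E2 in both genotypes, and each panel has its own axis.

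Srsf10, which encodes a splicing repressor when dephosphorylated, rose by 1.64 ± 0.11 in Arg260 and 1.69 ± 0.11 in WT. Its dimmer probes rose less, by 0.90 and 1.43 in Arg260 and by 0.95 and 1.41 in WT. Srsf3, the smallest classical SR protein, read 5.20 to 5.34 in Arg260 E2 against 3.93 to 4.00 in Arg260 PLB, and 5.14 to 5.29 in WT E2 against 3.69 to 3.83 in WT PLB. Its log2 changes of 1.29 and 1.45 had a standard error of 0.06. Srsf1, a general splicing activator long known as SF2/ASF, rose by 0.90 ± 0.07 in Arg260 and 0.98 ± 0.07 in WT. The other SR genes that rose, Srsf4, Srsf5, Srsf6, Srsf7, Srsf9 and Srsf11, changed by 0.45 to 1.31 in Arg260 and 0.37 to 1.25 in WT.

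Srsf12 and Sfrs18 did not rise, the latter placed among the SR genes only by its array name. Srsf12 read -1.02, -1.59, -1.65 and -1.38 in Arg260 E2, against -0.98, -1.02, -1.16 and -0.60 in Arg260 PLB, and the ranges overlapped. Its log2 change was -0.47 ± 0.17 in Arg260 (adjusted p 0.0269) and -0.12 ± 0.17 in WT (adjusted p 0.559), and the Arg260 call was lost under 10 of 29 other settings, quantile normalization among them (adjusted p 0.0896). Sfrs18, now named Pnisr, changed by -0.08 ± 0.11 in Arg260 and -0.26 ± 0.11 in WT (adjusted p 0.542 and 0.0487), a WT call lost under 15 of 29 settings. In Arg260 it was called lower under 4 of 29, at -0.49 with quantile normalization, -0.50 with its probes averaged and -0.52 in the authors' deposited table (adjusted p 8.21e-04, 1.81e-04 and 0.00154). Its second probe was clearer, at 0.21, 0.14, 0.27 and 0.30 in Arg260 E2 against 1.28, 1.28, 1.01 and 0.996 in Arg260 PLB. That probe changed by -0.91 in Arg260 and -1.04 in WT (adjusted p over all probes 1.64e-06 and 4.07e-07), and its E2 arrays all lay below its PLB arrays.

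Of the 18 hnRNP genes, 15 rose in both genotypes, with a class median log2 change of 0.89 in Arg260 and 0.77 in WT. Hnrnpab and Hnrnpd, which encode related RNA-binding proteins, led the class. Hnrnpab read 6.29, 6.16, 6.25 and 6.30 in Arg260 E2, against 4.30, 4.42, 4.18 and 4.56 in Arg260 PLB. The values in WT were 6.14, 6.33, 6.28 and 6.22 with E2, against 4.26, 4.37, 4.31 and 4.33 with PLB. The E2 arrays were all higher, and the change was 3.70-fold in Arg260 and 3.80-fold in WT (adjusted p 1.34e-10 and 1.21e-10). Hnrnpd, also known as AUF1 and a regulator of mRNA decay, rose by 1.83 ± 0.11 in Arg260 and 1.84 ± 0.11 in WT. Hnrnpf, which binds G-rich runs, rose by 1.43 ± 0.12 and 1.49 ± 0.12 in the same order.

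Further well-known hnRNP genes also rose. Hnrnpa1, a classical antagonist of SR proteins, rose by 1.002 ± 0.12 in Arg260 and 0.92 ± 0.12 in WT. Hnrnpc, which binds uridine runs in introns, rose by 0.93 ± 0.08 in Arg260 and 0.73 ± 0.08 in WT. Hnrnpa2b1 rose by 0.80 ± 0.09 in Arg260 and 0.59 ± 0.09 in WT, and with quantile normalization its WT value was 0.16 (adjusted p 0.154). Hnrnpk, which binds cytosine-rich sequence, rose by 0.69 ± 0.06 in Arg260 and 0.68 ± 0.06 in WT. Hnrnpa1, Hnrnpa3 and Snrpg have close copies elsewhere in the genome, and their probes may read these too.

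Hnrnpul1, Hnrnpul2 and Hnrnph3 were not higher. Hnrnpul1 changed by -0.21 ± 0.10 in Arg260 and -0.11 ± 0.10 in WT (adjusted p 0.0709 and 0.347), and was called lower under 4 of 29 other settings in Arg260 and 1 in WT. Its second probe had the opposite sign, at 0.21 in Arg260 and 0.17 in WT. Hnrnph3 read 0.07, -0.35, -0.13 and 0.08 in WT E2, against 0.40, 0.20, 0.22 and 0.08 in WT PLB. The change was -0.12 ± 0.11 in Arg260 (adjusted p 0.372) and -0.31 ± 0.11 in WT (adjusted p 0.0273), a WT call lost under 9 of 29 settings. The second Hnrnph3 probe did not fall, at 0.09 in Arg260 and 0.05 in WT. The paralogs Hnrnph1 and Hnrnph2 rose by 0.86 and 0.93 in Arg260 and by 0.72 and 0.86 in WT.

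Of the 12 snRNP protein genes, 11 rose and Snrpn fell in both genotypes, with a class median log2 change of 1.14 in Arg260 and 1.09 in WT. Sm proteins form the ring around the snRNA of each particle. Snrpd1, an Sm protein gene, read 5.28, 5.17, 5.11 and 5.20 in Arg260 E2, against 3.30, 3.22, 3.31 and 3.42 in Arg260 PLB. The WT readings were 5.21, 5.12, 5.38 and 5.06 with E2, against 3.29, 3.29, 3.03 and 2.97 with PLB. These groups did not overlap, and the gene rose 3.68-fold in Arg260 and 4.14-fold in WT. Its ring partner Snrpd3 rose by 1.58 ± 0.11 in each genotype, and Snrpb by 1.31 ± 0.11 in each. Snrpa1, a protein of the U2 particle, rose by 1.68 ± 0.14 in Arg260 and 1.44 ± 0.14 in WT. Snrpg rose least, by 0.43 ± 0.05 and 0.39 ± 0.05, and with quantile normalization it was not called (0.06 in Arg260 and 0.10 in WT).

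Snrpn, a paralog of Snrpb that is expressed from the paternal allele, moved the other way. It read -2.05, -1.63, -1.71 and -1.93 in Arg260 E2, against -1.14, -1.08, -1.30 and -0.73 in Arg260 PLB. WT uteri gave -1.73, -1.36, -1.54 and -1.29 with E2, against -0.99, -0.87, -1.16 and -0.91 with PLB. No E2 array reached a PLB array of its genotype, and the log2 change was -0.77 ± 0.13 in Arg260 and -0.50 ± 0.13 in WT (adjusted p 1.46e-04 and 0.00478). Within slide 2 alone the WT change was -0.38 and was not called (adjusted p 0.231). A second Snrpn probe fell by 0.98 in Arg260 and 0.94 in WT, and the third changed by -0.55 in Arg260 and -1.27 in WT. Snrpb, its paralog, rose in the same uteri.

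Of the 8 SF3A and SF3B genes, which encode the part of the U2 particle that holds the branch point, 7 rose in both genotypes. The class median log2 change was 1.01 in Arg260 and 1.02 in WT. Sf3b3 read 5.87, 5.83, 5.70 and 5.86 in Arg260 E2, against 4.11, 4.12, 3.90 and 4.22 in Arg260 PLB. With E2, WT uteri read 5.77, 5.78, 5.56 and 5.64, against 4.11, 4.12, 3.97 and 4.09 with PLB. It rose 3.31-fold in Arg260 and 3.06-fold in WT, with no overlap. Sf3b4 rose by 1.43 ± 0.07 in Arg260 and 1.52 ± 0.07 in WT, and Sf3a1 by 1.45 ± 0.13 and 1.33 ± 0.13. Sf3b1, the subunit that contacts the branch point region, rose by 0.80 ± 0.12 in Arg260 and 0.93 ± 0.12 in WT.

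The small subunit gene Sf3b5 rose by 0.48 ± 0.06 in Arg260 and 0.54 ± 0.06 in WT, but with quantile normalization the values were -0.02 and 0.11 and neither was called. Sf3b2 was not called in either genotype. It read 4.26, 4.34, 4.26 and 4.31 in Arg260 E2 against 4.11, 4.21, 4.09 and 4.25 in Arg260 PLB. The values in WT were 4.17, 4.21, 4.14 and 4.09 with E2, against 4.18, 4.17, 4.17 and 4.14 with PLB. Its log2 change was 0.13 ± 0.06 in Arg260 and -0.01 ± 0.06 in WT (adjusted p 0.0621 and 0.869), and with quantile normalization it fell by 0.38 in Arg260 and 0.46 in WT. In Arg260 it was called higher with arrays centred on the median (0.26, adjusted p 0.00221). It was also called higher there with a different variance prior in limma (adjusted p 0.0395) and without Arg260 PLB replicate 4. In the main values the Arg260 E2 arrays all lay above the Arg260 PLB arrays, by a narrow margin.

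**Figure D3:**
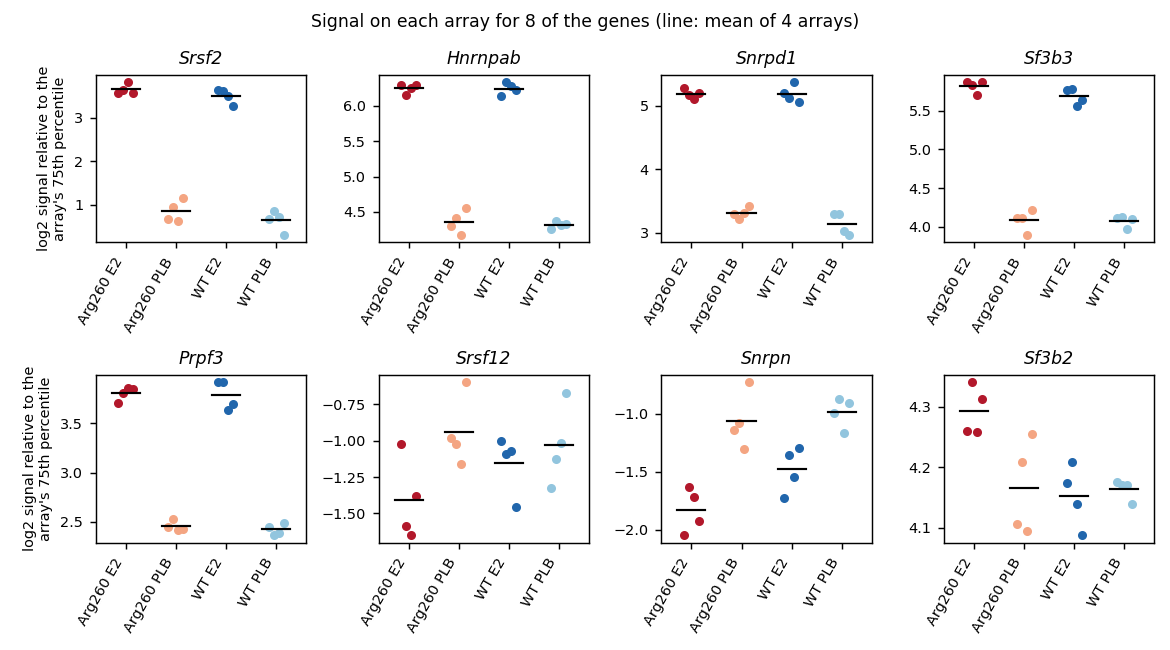
Log2 signal relative to the array's 75th percentile (y axis) on each array for 8 genes, by group (x axis), with the mean of 4 arrays as a line. Srsf2, Hnrnpab, Snrpd1, Sf3b3 and Prpf3 have E2 arrays above PLB arrays in both genotypes, Snrpn has them below, and Srsf12 overlaps, as Sf3b2 does in WT; each panel has its own axis.

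Of the 13 Prpf genes, which encode proteins named after yeast pre-mRNA processing mutants, 12 rose in both genotypes. The class median log2 change was 0.79 in Arg260 and 0.95 in WT. Prpf3, a protein of the U4/U6 particle, read 3.71, 3.81, 3.86 and 3.85 in Arg260 E2, against 2.44, 2.52, 2.41 and 2.43 in Arg260 PLB. The WT readings were 3.92, 3.92, 3.64 and 3.69 with E2, against 2.44, 2.36, 2.39 and 2.49 with PLB. It rose 2.56-fold in Arg260 and 2.59-fold in WT. Prpf4b, a kinase of the spliceosome, rose by 1.25 ± 0.09 in Arg260 and 1.36 ± 0.09 in WT. A second Prpf4b probe rose less, by 0.50 in Arg260 and 0.44 in WT. Prpf38a rose by 1.24 ± 0.10 in Arg260 and 1.07 ± 0.10 in WT.

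Prpf8, the large scaffold at the catalytic centre, read 6.89, 6.91, 6.83 and 6.89 in Arg260 E2, against 6.20, 6.39, 6.07 and 6.18 in Arg260 PLB. WT uteri gave 6.82, 6.83, 6.71 and 6.67 with E2, against 6.29, 6.30, 6.32 and 6.19 with PLB. The change was modest, 1.59-fold in Arg260 and 1.40-fold in WT, although the groups did not overlap. Prpf40b rose by 0.35 ± 0.09 in Arg260 and 0.36 ± 0.09 in WT, and was not called with quantile normalization (0.17 and 0.21). Prpf18, which acts at the second step of splicing, changed by -0.05 ± 0.09 in Arg260 and -0.20 ± 0.09 in WT (adjusted p 0.66 and 0.0634). It was called lower under 3 of 29 other settings in Arg260 and 7 in WT, quantile normalization among them (-0.26 and -0.36, adjusted p 0.0170 and 0.00190).

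Whether the mutant receptor altered the response was asked by the difference of the E2 changes, Arg260 minus WT. This difference of the responses was called for 0 of 63 genes, and for 0% of all genes tested, and 0 of the 63 had an unadjusted p under 0.05, against 961 of all genes. It ran from -0.35 for Srsf12 (95% interval -0.86 to 0.17) to 0.24 for Snrpa1 (-0.18 to 0.66), and 61 of 63 genes lay within 0.25. The median half-width of the intervals was 0.28, and differences smaller than that could not be told from 0 at 4 arrays a group. Across the 63 genes the responses correlated at a Pearson r of 0.980 and a Spearman rho of 0.978, over genes of different arrays, which are not independent replicates. Arg260 and WT were also compared within each treatment. With PLB, 0 of 63 genes were called and 1 had an unadjusted p under 0.05, against 0 called and 638 with such a p of all 25862. With E2, 0 were called and 5 had one, against 0 called and 1900 of all genes, a similar share.

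**Figure D4:**
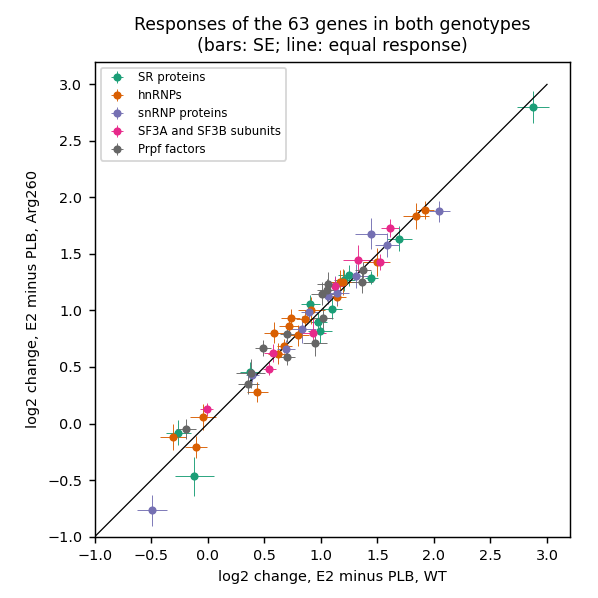
Log2 change after E2 in Arg260 (y axis) against that in WT (x axis) for the 63 genes, coloured by class, with standard errors and the line of equal response. The points follow the line from Snrpn at the lower left to Srsf2 at the upper right.

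Promoter sequence was available for 55 of the 63 genes, in 75 windows reaching 250 bases before to 50 after a RefSeq start (GRCm38.p6). That of Srsf2 is shown as the gene with the largest change, and that of Hnrnpd as an example, chosen after the matches were seen, that holds both motifs counted next. The window of Hnrnpab, which rose slightly more than Hnrnpd, holds 0 matches to either. Capitals mark TATAAA in Srsf2, on the minus strand at chr11:116853045-116853344, and CTTCCGG, the reverse complement of CCGGAAG, and CACGTG in Hnrnpd, on the minus strand at chr5:99978889-99979188.
Srsf2: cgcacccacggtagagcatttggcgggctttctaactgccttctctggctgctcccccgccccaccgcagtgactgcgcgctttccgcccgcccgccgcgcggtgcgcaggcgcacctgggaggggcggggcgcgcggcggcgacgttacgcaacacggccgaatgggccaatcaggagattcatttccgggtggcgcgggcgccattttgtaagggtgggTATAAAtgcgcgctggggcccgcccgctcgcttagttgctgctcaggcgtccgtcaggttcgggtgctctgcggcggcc
Hnrnpd: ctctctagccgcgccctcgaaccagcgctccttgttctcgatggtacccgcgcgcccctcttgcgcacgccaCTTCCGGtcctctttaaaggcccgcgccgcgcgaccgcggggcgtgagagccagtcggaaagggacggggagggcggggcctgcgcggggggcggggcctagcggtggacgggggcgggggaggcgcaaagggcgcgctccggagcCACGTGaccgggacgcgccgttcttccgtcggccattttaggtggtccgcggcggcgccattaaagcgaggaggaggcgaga

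Each motif was searched on both strands. CCGGAAG, the core bound by ETS factors, stood in 32% of the 75 windows. It stood in 8.86% of all 32851 promoters, 14.0% of those of genes tested and 20.2% of those of genes that rose in both genotypes. CACGTG, the E-box bound by Myc and related factors, stood in 14.7%. It stood in 7.15% of all promoters, 8.91% of those of genes tested and 11.0% of those of genes that rose. Both motifs contain CG, and the sets differed in CG content. The median count of CG per window was 25 in the 75 windows and 7 in all promoters. It was 17 in those of genes tested and 22 in those of genes that rose. The part of base composition in the motif shares was not tested. TATAAA stood in 9.33%, against 13.6% of all promoters, 9.24% of those of genes tested and 7.59% of those of genes that rose. The full estrogen response element, GGTCA and TGACC with 3 bases between them, was in 0 of the 75 windows and in 0.0700% of all promoters, which says only that these letters are not in these windows.

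Other genes of splicing were counted by 7 lists holding 151 tested genes. Of these, 120 rose and 14 fell in Arg260, and 118 rose and 18 fell in WT, with a median log2 change of 0.73 and 0.70. Of all genes tested, 33.6% rose and 30.7% fell in Arg260, and 31.9% rose and 31.7% fell in WT. Among 10 exon junction complex genes, which mark spliced mRNA, all rose in both genotypes, with a median of 1.45 in Arg260 and 1.42 in WT. Magohb rose by 1.76 in Arg260 and 1.81 in WT, Alyref, an mRNA export adaptor, by 1.73 and 1.75, and Casc3 by 0.46 and 0.38. Of 21 genes in the snRNP assembly list 17 rose and 2 fell in each genotype. That list also holds Nop56, Nop58 and Fbl of small nucleolar particles, and Larp7 and Mepce of the 7SK particle. Nop58, a core protein of box C/D small nucleolar particles, rose by 2.97 in Arg260 and 2.92 in WT, Strap by 2.10 and 2.11, and Gemin8, a subunit of the SMN complex, fell by 1.03 and 1.08.

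Of 27 further genes of snRNP and associated proteins, a list that also holds proteins of the minor spliceosome, 23 rose and 1 fell in each genotype. The shares over all genes were 33.6% higher and 30.7% lower in Arg260, and 31.9% and 31.7% in WT. Usp39 rose by 2.28 in Arg260 and 2.29 in WT on the log2 scale, Snrnp40 2.88-fold and 2.83-fold, and Snrnp25, of the minor spliceosome, fell by 0.99 and 0.87. Of 16 genes of branch point and 3′ splice site recognition, 15 rose and 0 fell in Arg260, and 14 rose and 1 fell in WT. Smndc1 rose by 1.74 in Arg260 and 1.58 in WT, U2af1, the small subunit of the factor that reads the 3′ splice site, by 1.45 and 1.48, and Rbm5 was not called in Arg260 (-0.10) and fell by 0.33 in WT. Of 28 catalytic step factors 23 rose and 3 fell in Arg260, and 23 rose and 4 fell in WT. Bud31 rose by 1.62 in Arg260 and 1.58 in WT, Crnkl1 by 1.30 and 1.27, and Gcfc2 fell by 0.60 and 0.83.

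Kinases and phosphatases of SR proteins, a list that also names the import receptor Tnpo3, went both ways, as all genes did. Of 10 tested, 5 rose and 2 fell in Arg260, and 5 rose and 3 fell in WT. Over all genes 33.6% rose and 30.7% fell in Arg260, and 31.9% rose and 31.7% fell in WT. The falls lay below those shares in the main fit only. With quantile normalization 4 of the 10 fell in Arg260 and 5 in WT. The same counts were found with normexp background correction and in the authors' table. The phosphatase gene Ppm1g rose by 1.87 in each genotype, and Srpk1, the kinase that sends SR proteins to the nucleus, by 1.63 in Arg260 and 1.46 in WT. Clk1, a nuclear SR protein kinase, fell by 0.79 in Arg260 and 1.14 in WT. Of 39 other regulators of alternative splicing, 27 rose and 6 fell in Arg260, and 26 rose and 7 fell in WT. Raly, an hnRNP C relative, rose by 2.49 in Arg260 and 2.45 in WT, the cold-inducible Rbm3 by 2.02 and 1.89, and the muscle regulator Rbm24 fell by 1.94 and 2.23.

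**Figure D5:**
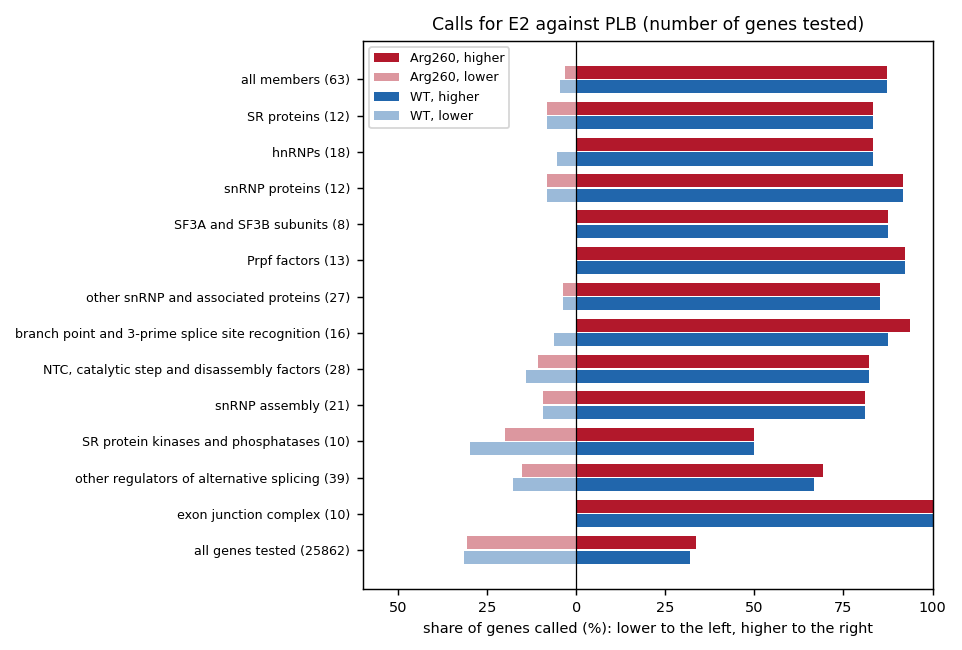
Share of genes called higher (right) and lower (left) after E2 (x axis, percent) in Arg260 (red) and WT (blue), for all 63 genes, their 5 classes, 7 other splicing lists and all genes tested (y axis, number tested in brackets). In each genotype 55 of the 63 genes are higher, against 33.6% of all genes in Arg260 and 31.9% in WT.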

How the data were processed

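Each of the 16 arrays is a 1-colour (Cy3) Agilent mouse array. The scanner files hold intensity values deposited by the authors, background-subtracted and detrended by Agilent Feature Extraction 10.10.1.1 and not normalized between arrays, per the file headers (probe coordinates on mm9). The authors' deposited table holds log2 values whose columns share a distribution (column medians 8.69); neither its background correction nor its filter is stated per the file headers, and limma is named in the submitters' processing notes. From the scanner intensity, log2 processed signal minus each array's 75th percentile was computed, flagged outlier spots were left out, and probes well above background on at least 4 of 16 arrays were kept. The brightest probe stood for a gene, names were updated through RefSeq (GRCm38.p6), and 25862 genes were fitted by group means in limma 3.58.1 (R 4.3.3) with Benjamini-Hochberg adjustment at 0.05.

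The members and lists were chosen with earlier results of these data known. Genes named with values were, in each class, the 3 with the highest and the 2 with the lowest mean E2 change plus a set of well-known members, and in each list the 2 highest and 1 lowest; remaining names complete a class count. The fit was tested on simulated arrays with normal noise: estimates were unbiased and intervals covered the true values. A first target for the recovery of 2-fold changes was missed and was replaced by these checks after the miss was seen. Some real changes of that size may go uncalled. The simulation changed far fewer genes than were called after E2, so its recovery need not hold for the E2 comparisons. The number of arrays limits precision. Alternatives were other scalings, background correction, filters, probe rules, slide and replicate blocks, the authors' table and leaving out arrays.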

Additional observations from a re-analysis of the deposited data

Results flagged for a closer look

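Among 132 groups of 4 arrays (33 named genes in 4 groups), 6 held an array whose gap to its nearest neighbour exceeded the 95% critical value of Dixon's test, and chance flags about 1 in 20 groups. Hnrnpa2b1 read 5.50 on WT E2 replicate 1, against 5.21 to 5.25 on the others. Hnrnpf read 5.60 on Arg260 E2 replicate 3, against 6.07 to 6.15. Hnrnpul1 read 0.756 on Arg260 E2 replicate 2, against 0.885 to 0.900. Sf3b2 read 4.14 on WT PLB replicate 4, against 4.17 to 4.18, and Sf3b3 read 3.97 on WT PLB replicate 3, against 4.09 to 4.12. Sf3b5 read 3.97 on Arg260 PLB replicate 3, against 3.91 to 3.92, and that is an array that stood apart.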

How the results depend on the processing

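Genes called lower numbered 5 in Arg260 and 5 in WT with quantile normalization, with normexp background correction and in the authors' table, and 1 in each with arrays centred on the median, within slide 1 and within slide 2. The median log2 change of the 63 genes was 0.58 in Arg260 and 0.61 in WT with quantile normalization, 0.59 and 0.61 with normexp, 0.60 and 0.64 in the authors' table, and 1.07 and 1.09 with median centring, which moved the median of all genes to 0.15 in Arg260 and 0.12 in WT. A 2-fold requirement left 30 genes higher in Arg260 and 29 in WT, with 0 lower. Reversed values were those of Sf3b2 in Arg260 (-0.38 with quantile, -0.35 with normexp, -0.37 in the table) and Sf3b5 in Arg260 (-0.0186 with quantile and -0.0219 with normexp). The cause was not tested. Leaving out each array in turn gave 54 to 56 genes higher and 1 to 2 lower in Arg260, 54 to 55 higher and 1 to 4 lower in WT, medians of 0.92 to 0.99 in each, and 0 called between genotypes. Replicate numbers gave no clear sign of pairing: 3 of 24 same-numbered pairs correlated over 0.1 and 5 of 16 arrays matched their own number best. The highest correlation was 0.258, and such a check cannot exclude pairing. With the replicate block, 55 genes rose and 2 fell in Arg260, and 55 rose and 3 fell in WT.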

Other observations

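Hnrnpa3, singled out after its values were seen, has 7 probes. On WT PLB replicate 2, probes A_55_P1982613 and A_55_P1978061 read -8.34 and -8.35, against 4.46 to 4.61 and -0.02 to 0.12 on the other WT PLB arrays, while the brightest probe of the gene read 5.37 there, against 5.29 to 5.52. The second probe of Snrpc was well above background on 0 of 16 arrays and was not tested.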
